A study of Mus musculus with 30 samples.

Results

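The 10 smooth muscle contractile genes followed here are Acta2, Actg2, Tagln, Cnn1, Myh11, Smtn, Myl9, Tpm1, Tpm2 and Cald1. They were found by symbol among the 78334 Ensembl gene identifiers of the deposited count table, and all 10 were present, each under 1 identifier. The study made 30 RNA-seq libraries in 9 groups, over 2 sequencing runs, from mouse smooth muscle cells of the aorta grown in culture. Its title poses the question of how CASC15, a long noncoding RNA gene, acts on the growth of vascular smooth muscle.

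All cells shared a serum-free culture of 48 h and a transfection of at least 24 h. In run 2 no cells were treated. That run held 2 libraries with a control GapmeR, 2 labelled as knockdown of total CASC15, 3 labelled as overexpression controls (called control plasmid here) and 3 labelled as overexpression of total CASC15. A GapmeR is an antisense oligonucleotide that leads RNase H to the RNA it pairs with. The transfection dose is recorded as 1 µg/ml of GapmeR or plasmid for every library. Beyond that, whether the other knockdowns used GapmeRs or siRNA is not given in the sources used here. The labels number the targeted gene differently between libraries of 1 group, all read here as CASC15. Run 3 held 5 groups of 4 libraries. Knockdown controls were left untreated or were given angiotensin II at 10 ng/ml or the growth factor PDGF-BB at 10 to 30 ng/ml for 24 h. Cells labelled as knockdown of long CASC15 were left untreated or were given angiotensin II in the same way. The labels name a batch for each library, P17 to P19 in run 2 and P16 to P19 in run 3, and each batch gave at most 1 library to a group. The knockdown control and knockdown groups of run 2 held batches P17 and P18 only. The labels name neither the strain, age or sex of the donor animals nor how many animals gave the cells, and the culture protocol names both mouse and rat cells. Nothing says that libraries of a group came from separate cultures beyond their batch, so p-values measure only the spread between these libraries.

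In contractile smooth muscle, a myosin of heavy chains (Myh11) with regulatory light chains (Myl9) pulls on thin filaments of smooth muscle actins (Acta2, Actg2). Tropomyosins (Tpm1, Tpm2), caldesmon (Cald1) and calponin (Cnn1) lie along the thin filament, while transgelin (Tagln) and smoothelin (Smtn) bind actin. Serum response factor with the coactivator myocardin switches many of these genes on, and PDGF-BB is a classical signal for smooth muscle cells to lose contractile proteins and divide.

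Total expected counts were 15771490 to 30362047 per library. The gene 2610307P16Rik (ENSMUSG00000085936.10), read here as mouse CASC15 from its place beside Sox4 (no table used here pairs the names), checked the labels. It lay at 2.15 to 3.48 CPM (counts scaled to library size) in untreated long knockdown and at 4.94 to 6.01 CPM in the matching controls. The 3 overexpression libraries had 604 to 916 CPM, against 4.03 to 8.69 CPM with control plasmid. In the libraries labelled total knockdown it was 8.29 and 9.73 CPM, above the 6.37 and 7.66 CPM of their controls, so that group is called by its label throughout. The gene also fell under PDGF-BB with no knockdown, to 2.95 to 4.82 CPM (a difference of -0.62 on the log2 scale, SE 0.18, adjusted p = 0.0101 by edgeR), so a lower level is not particular to the knockdown. Counts per gene do not separate long from total CASC15 transcripts.

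The labelled cell type was checked against 10 smooth muscle markers, Myh11, Acta2, Cnn1, Tagln, Lmod1, Myocd, Smtn, Actg2, Des and Synpo2. They summed to 184 to 544 CPM per library, most of it Acta2 and Smtn. Cnn1 (ENSMUSG00000001349.6) had at most 5 counts in any of the 30 libraries, and Actg2 (ENSMUSG00000059430.15) at most 2. Myh11, the gene most specific to smooth muscle, reached 6.67 CPM at most, and Tagln stayed between 0.234 and 3.45 CPM. Acta2 was present in every library, at 96.5 to 441 CPM, and Smtn at 42.2 to 103 CPM. The 8 fibroblast markers summed to 685 to 2376 CPM per library, most of it from Dcn, which smooth muscle cells in culture also express. The smooth muscle sum thus lay below the fibroblast sum in every library. The pericyte list summed to 77.5 to 369 CPM, the macrophage and leukocyte list to 8.59 to 31.8 CPM and the endothelial list to 2.49 to 11.7 CPM. The endothelial gene Tie1 and the macrophage genes C1qa, C1qb and Tyrobp had 0 counts in every library, and the leukocyte gene Ptprc had at most 2. In these bulk libraries, fewer cells of a type and less RNA per cell cannot be told apart.

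**Figure D1:**
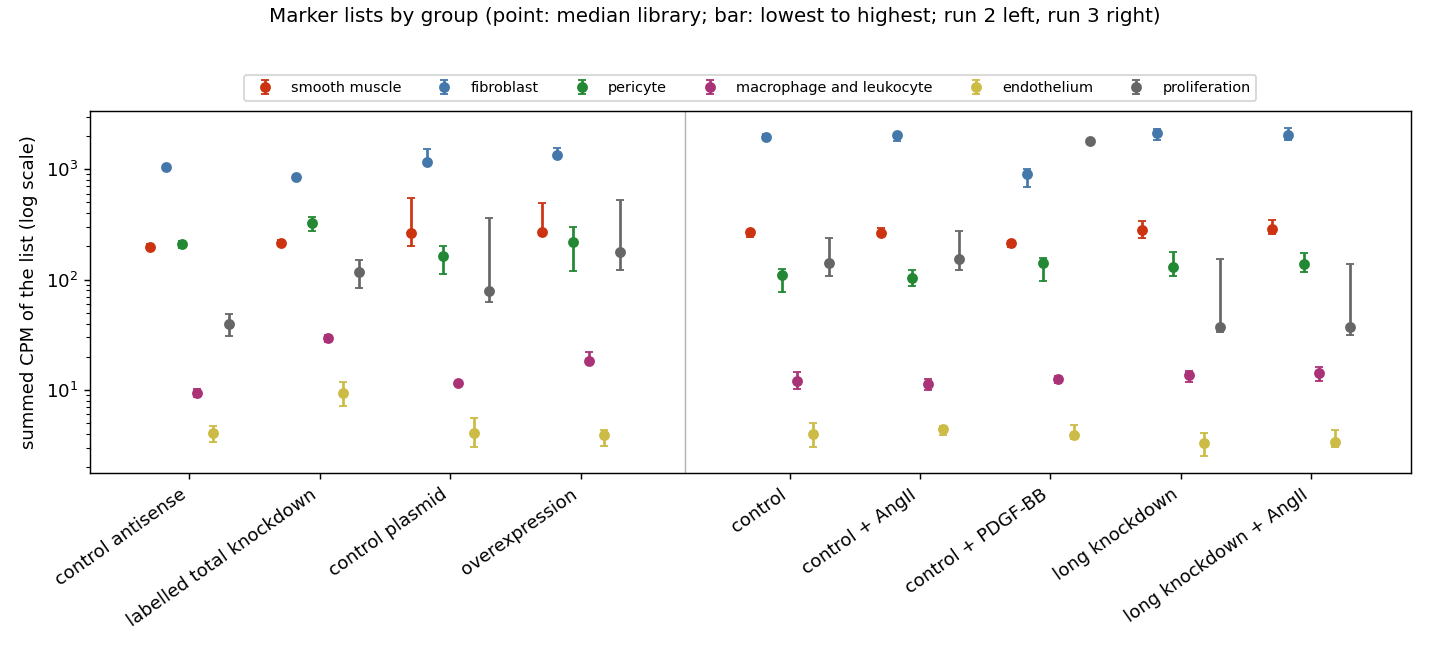
Summed CPM of the marker lists and of 8 proliferation genes (log axis) in each group, with the median library as a point and the lowest and highest library as the bar; fibroblast markers summed to 685 to 2376 CPM and endothelial markers to 2.49 to 11.7 CPM. Under PDGF-BB the proliferation sum was 1730 to 1813 CPM and the fibroblast sum 685 to 997 CPM.

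Per kilobase of the longest annotated transcript, the untreated controls of run 3 gave 3 tiers of level. Tpm1 had the top level, 239 ± 31.2 CPM per kb (SD, n = 4), followed by Cald1 at 151 ± 18.7 and Acta2 at 104 ± 6.32. Tpm2 at 17.8 ± 0.212, Myl9 at 13.9 ± 4.34 and Smtn at 13.8 ± 0.981 CPM per kb made the middle tier, and these last 2 did not differ beyond their spread. At the bottom were Tagln at 0.664 ± 0.258 and then Cnn1, Myh11 and Actg2, each at 0.0105 CPM per kb or less. The 3 tiers held the same genes in all 9 groups, but the order within a tier moved. Smtn led the middle tier in both long knockdown groups, under PDGF-BB and in the labelled total knockdown, and Myl9 closed it in every group except these untreated controls. With the median transcript length in place of the longest, Cald1 came before Tpm1 in these controls. Myl9 then led the middle tier in these controls and in controls under angiotensin II, and Tpm2 led it under PDGF-BB. The order within these tiers thus rests on the length used. Gene counts do not separate the isoforms of any member, and Tpm1 and Cald1, for example, each make muscle and non-muscle forms from 1 gene.

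Matches to the CArG box, the motif that serum response factor binds, were looked for in the 250 bases before the start of each member in RefSeq (build GRCm38.p6). All 7 matches are shown, since serum response factor is the known regulator of these genes. Each is given 5′ to 3′ on the gene's strand, with the match in capitals, 10 bases on either side, and its distance in bases from the RefSeq start.
Acta2 at -84, chr19:34255438-34255467, minus strand: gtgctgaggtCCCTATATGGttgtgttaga
Acta2 at -34, chr19:34255388-34255417, minus strand: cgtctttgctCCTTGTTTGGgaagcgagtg
Myl9 at -161, chr2:156775293-156775322, plus strand: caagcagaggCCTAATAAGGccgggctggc
Myl9 at -99, chr2:156775355-156775384, plus strand: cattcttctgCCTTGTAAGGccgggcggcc
Tpm1 at -221, chr9:67049415-67049444, minus strand: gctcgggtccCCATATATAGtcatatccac
Tpm1 at -80, chr9:67049274-67049303, minus strand: acaagcttttCCAAAAAAGTattggctgtc
Cald1 at -203, chr6:34598291-34598320, plus strand: acggtttcaaGCTTTTTAGGacttggtttt
The box equals its own reverse complement, so 1 search covered both strands, and up to 1 mismatch was allowed. The match of Myl9 at -161 was exact, and the other 6 had 1 mismatch. Cnn1, Smtn and Tpm2 held none in these windows. The windows depend on where a gene is taken to start. In the GENCODE M21 annotation of the same build, all 8 windows overlap an exon of some transcript of the gene, and 3 of the 7 matches, both of Acta2 and that of Tpm1 at -80, lie within such an exon. An exact box was in 482 of 32851 RefSeq windows of this length (1.47%), and a box with up to 1 mismatch in 6117 of them (18.6%). Of the members, 7 had such a window, with 8 windows in all since Cald1 has 2 starts. An exact box was in 1 of the 8 windows, and a box with up to 1 mismatch was in 4, those of Acta2, Myl9, Tpm1 and 1 of the starts of Cald1. Actg2, Tagln and Myh11 had no window in the table. A match describes the letters only.

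Of the 10 members, 8 passed the filter on low counts in each run. Actg2 and Cnn1 did not and were not tested. The estimated counts of Tagln, Smtn and Tpm1 were not whole in 19, 18 and 20 of the 30 libraries, as arises where reads are divided between identifiers. Levels were compared with edgeR's quasi-likelihood test in 1 fit per run, p-values were adjusted by Benjamini-Hochberg over all genes tested, and a gene is said to have risen or fallen at an adjusted p under 0.05. Changes are fitted log2 fold changes, called log2 changes from here on.

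**Figure D2:**
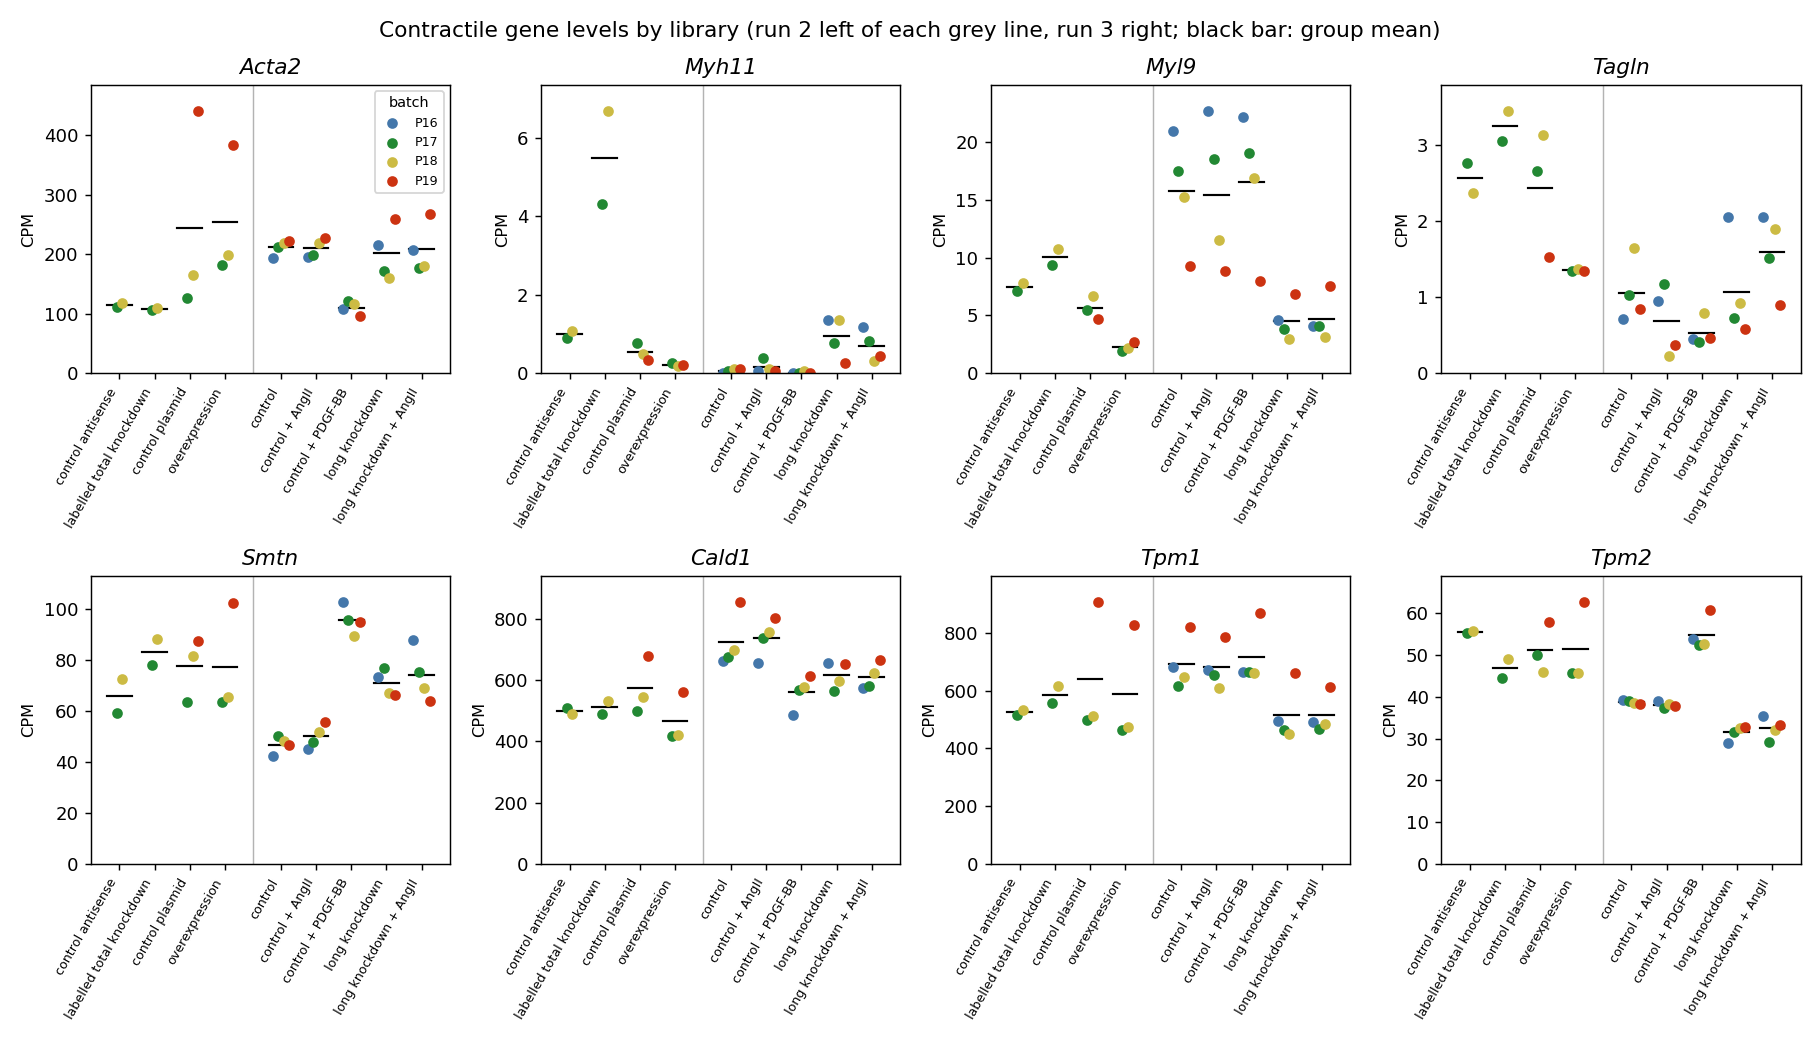
CPM (linear axes from 0) of the 8 tested members in each of the 30 libraries, coloured by labelled batch, with the group mean as a black bar. Acta2 is lowest in run 3 under PDGF-BB (96.5 to 121 CPM), Myl9 is lower in both long knockdown groups than in their controls, and batch P19 holds the top Acta2 library of both run 2 plasmid groups (441 and 383 CPM).

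PDGF-BB was set against no treatment in control cells first. Acta2 fell to 52.1% of its control level and Cald1 to 77.6%, while Smtn rose 2.05-fold and Tpm2 1.42-fold, so the contractile genes did not move in 1 direction. Of the 8 tested members, 2 rose and 2 fell, where 43.6% of all 15103 genes tested changed (23.6% rose and 20% fell). With the batch as a block the same count of 4 passed, where 54.5% of all genes changed. The members' median log2 change was -0.16, and that of all genes tested was -0.02.

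Acta2 (ENSMUSG00000035783.10), the main actin of vascular smooth muscle, had 194, 211, 220 and 223 CPM in untreated controls of batches P16 to P19 and 108, 121, 116 and 96.5 CPM under PDGF-BB. Every library under PDGF-BB lay below every untreated one. The log2 change was -0.94 (SE 0.14, adjusted p = 2.15e-05), and within the 4 batches it was -0.84, -0.80, -0.92 and -1.21. Cald1 (ENSMUSG00000029761.17), whose product restrains myosin on the thin filament, had 663, 675, 699 and 855 CPM without and 486, 566, 576 and 615 CPM with PDGF-BB. The groups did not overlap, and the log2 change was -0.37 (SE 0.09, adjusted p = 0.00229). Both genes were lower in all 4 batches.

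Smtn (ENSMUSG00000020439.19), an actin-binding protein of contractile cells, had 42.2, 50.0, 48.0 and 46.5 CPM in untreated controls and 103, 95.5, 89.2 and 94.7 CPM under PDGF-BB. This was a rise of 1.03 on the log2 scale (SE 0.09, adjusted p = 1.78e-08), seen in all 4 batches at 0.89 to 1.28. Tpm2 (ENSMUSG00000028464.17), a tropomyosin, had 38.2 to 39.2 CPM in the 4 untreated libraries and 52.5 to 60.8 CPM under PDGF-BB. The groups did not overlap, and the log2 change was 0.50 (SE 0.07, adjusted p = 3.66e-06). Its relative Tpm1 (ENSMUSG00000032366.16) did not pass the test: 681, 617, 647 and 821 CPM stood against 665, 666, 662 and 868 CPM, with a log2 change of 0.05 (SE 0.13, adjusted p = 0.787).

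The motor genes did not pass either. Myl9 (ENSMUSG00000067818.7), a myosin regulatory light chain, had 20.9, 17.5, 15.3 and 9.28 CPM without and 22.2, 19.1, 16.9 and 7.99 CPM with PDGF-BB, in the batch order P16 to P19 (log2 change 0.07, SE 0.35, adjusted p = 0.886). In both groups P19 was the lowest library. Myh11 (ENSMUSG00000018830.11), the smooth muscle myosin heavy chain, had 6 counts over 4 untreated libraries and 1 count over 4 libraries under PDGF-BB. Tagln (ENSMUSG00000032085.6) had 0.714 to 1.65 CPM without and 0.411 to 0.790 CPM with PDGF-BB, a log2 change of -0.99 (SE 0.49, adjusted p = 0.108), and it was lower in all 4 batches.

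All 8 proliferation genes rose with PDGF-BB, among them Mki67, a marker of cycling cells, by 3.77 on the log2 scale (SE 0.86, adjusted p = 0.00209). Plk1, a mitotic kinase, rose by 3.71 and Top2a, a topoisomerase, by 3.32. Of 6 tested fibroblast markers, 4 fell and 1 rose, where 20% of all genes fell and 23.6% rose. These values moved with the members' changes, and their part in them was not tested. Of 28 tested genes of the wider contractile apparatus, 6 rose and 7 fell, a share near the 43.6% of all genes that changed, and the median log2 change was -0.03. Synpo2, an actin-bundling protein, rose by 0.74 (SE 0.23, adjusted p = 0.0129). Mylk, the kinase of the myosin light chain, Lmod1, an actin nucleator, and the light chain Myl6 did not pass (log2 changes 0.55, -0.78 and -0.01). Of 10 genes of the serum response factor axis, 1 rose and 1 fell (2 and 3 with the batch as a block, where 54.5% of all genes changed), and Srf, Mrtfa and Myocd, which encodes myocardin, did not pass (0.26, 0.09 and -0.45). Srf passed with the block (adjusted p = 0.0357). Of the 7 identifiers of non-muscle actins and myosins 1 fell, and Actb and Myh9 did not pass (0.19 and -0.06). With the batch as a block 2 of the 7, Actb among them, also rose.

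**Figure D3:**
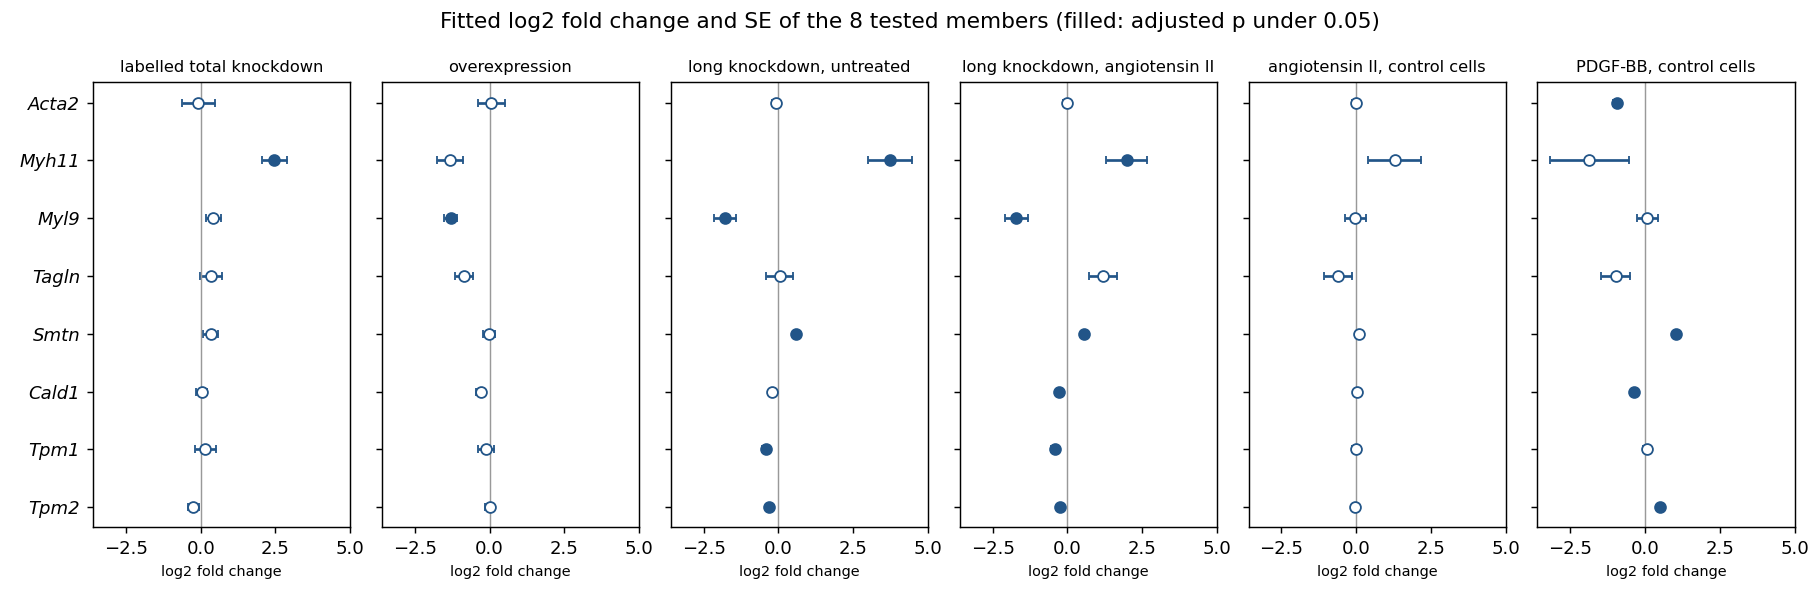
Fitted log2 fold change (x axis) with its SE as the bar for the 8 tested members in 6 comparisons; filled points passed an adjusted p under 0.05. PDGF-BB has 4 filled points, 2 on each side of 0, and both long knockdown panels have Myh11 and Smtn above 0 and Myl9, Tpm1 and Tpm2 below.

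Knockdown of long CASC15 was compared with the knockdown control in untreated cells and, with separate libraries of the same batches, under angiotensin II. In both settings Myl9 fell to 29.0% and 30.7% of its control level, Tpm1 and Tpm2 fell by smaller steps, Smtn rose about 1.5-fold and Myh11 rose from almost no counts, while Acta2 stayed within its spread. In untreated cells 2 members rose and 3 fell of the 8 tested, where 25% of all genes tested changed (12.3% rose and 12.8% fell). Under angiotensin II 2 rose and 4 fell, where 26.7% changed (13.4% rose and 13.3% fell). With the batch as a block 6 and 7 members passed, where 40.6% and 41.3% of all genes changed. The members' median log2 change was -0.15 and -0.12 in these settings, and that of all genes tested was 0.02 and 0.01.

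Myl9 had 4.58, 3.78, 2.94 and 6.85 CPM in untreated long knockdown of batches P16 to P19, all below the control range of 9.28 to 20.9 CPM given above. Under angiotensin II it had 4.06, 4.10, 3.14 and 7.57 CPM with knockdown and 22.7, 18.5, 11.5 and 8.88 CPM in controls. The log2 changes were -1.79 (SE 0.38, adjusted p = 0.00209) and -1.70 (SE 0.38, adjusted p = 0.00294), and the groups did not overlap in either setting. The size depended on the batch. Within P16, P17 and P18 the log2 ratio was -2.17, -2.18 and -2.34 in untreated cells and -2.45, -2.14 and -1.84 under angiotensin II, but within P19 it was -0.43 and -0.23. P19 was the lowest control library and the highest knockdown library in both settings. Without P19 the fitted log2 changes were -2.25 and -2.23.

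P19 also stood apart in growth markers. The 8 proliferation genes summed to 153 and 138 CPM in its long knockdown libraries, without and with angiotensin II, against 31.8 to 41.8 CPM in the other 6 knockdown libraries. In the untreated controls the sum was 240 CPM in P19 and 108 to 145 CPM in the other batches. CASC15 in untreated long knockdown of P16 to P19 was 2.15, 2.78, 3.48 and 3.08 CPM, against 6.01, 5.20, 4.94 and 5.93 CPM in the controls of the same batches. Under angiotensin II it was 2.62, 3.08, 2.60 and 3.89 CPM against 4.94, 6.13, 5.31 and 4.69 CPM, so that P19 had the highest knockdown and the lowest control library there, and not in untreated cells. Among other cell types, the pericyte list summed to 107 to 178 CPM in untreated long knockdown and 77.5 to 126 CPM in controls, with 2 of 3 tested genes risen, and 2 of 6 tested fibroblast markers rose and 2 fell. Under angiotensin II the pericyte list summed to 117 to 173 CPM in long knockdown and 86.6 to 121 CPM in controls, again with 2 of 3 tested genes risen, and 1 fibroblast marker rose and 2 fell. Of the 3 tested endothelial markers 1 rose and 1 fell in each setting, and of the 2 tested macrophage and leukocyte markers 1 rose under angiotensin II. Beside these counts, 12.3% of all genes rose and 12.8% fell in untreated cells, and 13.4% rose and 13.3% fell under angiotensin II. The part of these differences in the members' changes was not tested.

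**Figure D4:**
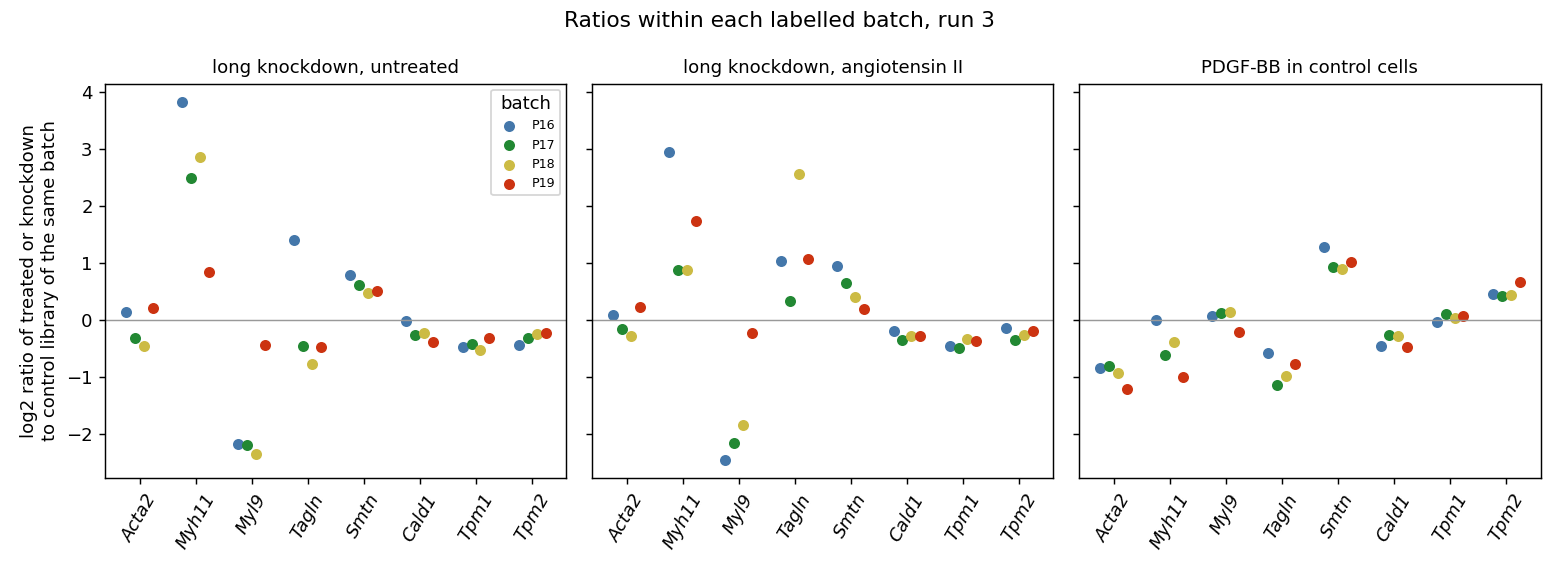
Log2 ratio (y axis) of the knockdown or treated library to the control library of the same batch for the 8 tested members, coloured by batch P16 to P19. Myl9 lies near -2 in P16, P17 and P18 and at -0.43 and -0.23 in P19 for long knockdown, while Acta2 under PDGF-BB lies between -0.80 and -1.21 in the 4 batches.

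Myh11 had 29, 14, 25 and 5 counts in untreated long knockdown (0.265 to 1.36 CPM) and 0, 1, 2 and 3 counts in controls. Pooled over 4 libraries this was 73 against 6 counts, a ratio of 14.6 with an exact 95% interval of 6.39 to 41.0 that covers counting error only. The fit gave a log2 change of 3.73 (SE 0.73, adjusted p = 0.000764), a size that depends on the prior count because the controls are at so few counts. Under angiotensin II it had 23, 15, 6 and 9 counts against 1, 8, 2 and 1, a ratio of 3.93 (2.07 to 8.08), and the groups overlapped. There the log2 change was 1.98 (SE 0.68, adjusted p = 0.0344), and the call was lost without any 1 of 5 libraries (control P16, P18 or P19, knockdown P16 or P17, adjusted p = 0.0788 to 0.134) or without a filter (0.0523). Even at its highest in run 3, Myh11 stood far below Acta2 per kilobase, at 0.143 ± 0.0802 against 99.1 ± 22.4 CPM per kb in untreated long knockdown (SD, n = 4).

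Smtn had 73.2, 76.7, 66.9 and 66.3 CPM in untreated long knockdown, above all 4 controls (42.2 to 50.0 CPM), and its log2 change was 0.60 (SE 0.09, adjusted p = 4.86e-05). Under angiotensin II it had 87.5, 75.3, 68.9 and 63.9 CPM against 44.9, 47.8, 51.6 and 55.7 CPM in controls, with a log2 change of 0.56 (SE 0.09, adjusted p = 0.000103). It was higher in all 4 batches of both settings, by 0.48 to 0.80 untreated and by 0.20 to 0.96 under angiotensin II.

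The tropomyosins went the other way. Tpm2 had 28.9 to 32.7 CPM in untreated long knockdown, below the controls at 38.2 to 39.2 CPM, with a log2 change of -0.30 (SE 0.07, adjusted p = 0.00213). Under angiotensin II it had 29.2 to 35.4 CPM against 37.3 to 39.0 CPM, and the change was -0.23 (SE 0.07, adjusted p = 0.0143; 0.0649 without knockdown P17, 0.0511 with only those 2 groups in the fit and 0.0947 without a filter on low counts). Tpm1 had 494, 463, 448 and 663 CPM in untreated long knockdown, and the P19 library overlapped the controls (617 to 821 CPM). Against the control of its own batch it was lower in all 4, by -0.31 to -0.53 on the log2 scale, and the fit gave -0.42 (SE 0.13, adjusted p = 0.0221). That call was lost without control P19 or knockdown P16, P17 or P18 (adjusted p = 0.0647 to 0.0885) and without a filter (0.0755). Under angiotensin II Tpm1 had 493, 467, 484 and 614 CPM against 672, 653, 610 and 787 CPM, a change of -0.40 (SE 0.13, adjusted p = 0.0268), lost without control P16 or P19 or knockdown P16, P17 or P18 (0.0513 to 0.116) and without a filter (0.106). With the batch as a block the adjusted p of Tpm1 was 4.91e-08 and 1.03e-07.

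Cald1 had 655, 565, 598 and 653 CPM in untreated long knockdown, just below the lowest control at 663 CPM, and did not pass the test (log2 change -0.23, SE 0.09, adjusted p = 0.0664; 0.00281 with the batch as a block). Under angiotensin II it fell by 0.27 on the log2 scale (SE 0.09, adjusted p = 0.0268), from 657 to 803 CPM in controls to 573 to 664 CPM, and the groups overlapped. That call was lost without control P18 or P19 or knockdown P16, P17 or P18 (0.0544 to 0.112). Tagln had 0.584 to 2.06 CPM in untreated long knockdown and 0.714 to 1.65 CPM in controls (log2 change 0.04, SE 0.45, adjusted p = 0.958). Under angiotensin II the log2 change was 1.2 (SE 0.47, adjusted p = 0.0652; 0.0293 with the batch as a block), with 124 counts over 4 knockdown libraries and 49 over 4 controls. Without control P17 or knockdown P19 the adjusted p of Tagln was 0.0333 and 0.0325.

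Acta2 had 216, 171, 160 and 260 CPM in untreated long knockdown and 208, 178, 181 and 268 CPM under angiotensin II. The log2 changes against controls were -0.07 (SE 0.14, adjusted p = 0.738) and -0.01 (SE 0.14, adjusted p = 0.967). The knockdown libraries spread more widely than the controls, with an SD of 45.6 against 12.9 CPM untreated, and P17 and P18 lay below their controls while P16 and P19 lay above in both settings. PDGF-BB and untreated long knockdown share the 4 untreated controls, and side by side their log2 changes were -0.94 and -0.07 for Acta2, 0.07 and -1.79 for Myl9, 0.50 and -0.30 for Tpm2, and 1.03 and 0.60 for Smtn.

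The wider contractile apparatus was split too. In untreated long knockdown 7 of its 28 tested genes rose and 8 fell, where 25% of all genes changed (8 and 13 with the batch as a block, where 40.6% changed), with a median log2 change of -0.17. Under angiotensin II 7 rose and 9 fell, where 26.7% changed, with a median of -0.19. Synpo2 rose by 2.29 (SE 0.22, adjusted p = 3.42e-07) and 2.18 (SE 0.23, adjusted p = 7.62e-07) in the 2 settings. The light chain Myl6 had log2 changes of -0.27 (adjusted p = 0.0931, and 0.00736 with the block) and -0.34 (0.0348). Mylk had -1.07 (0.211) and -1.35 (0.115), with 0.00132 and 0.000268 under the block, from levels of 3.19 ± 0.948 CPM in untreated controls and 1.53 ± 1.61 CPM in untreated knockdown (SD, n = 4). Lmod1 did not pass in either (0.46 and 0.27).

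In the serum response factor axis 3 of 10 genes rose and 2 fell in untreated long knockdown, where 25% of all genes changed. With angiotensin II 2 rose and 3 fell, where 26.7% changed. The block gave 5 and 3, and 4 and 3, where 40.6% and 41.3% changed. Myocd fell by 1.33 (SE 0.37, adjusted p = 0.0127) and 1.42 (SE 0.38, adjusted p = 0.00935), from 2.5 ± 0.685 CPM in untreated controls to 0.995 ± 0.487 CPM. Srf had 0.05 and 0.20 and Mrtfa -0.04 and -0.09, and neither passed. Of the 7 identifiers of non-muscle actins and myosins 4 fell and none rose in either setting, where 25% and 26.7% of all genes changed. Among them Actb, cytoplasmic actin, fell by 0.61 (SE 0.15, adjusted p = 0.00480) and 0.59 (SE 0.15, adjusted p = 0.00562), and Myh9, non-muscle myosin, by 0.34 (SE 0.08, adjusted p = 0.00263) and 0.24 (SE 0.08, adjusted p = 0.0241). Of the 8 proliferation genes 1 fell in untreated cells and 2 with angiotensin II, while the block gave 7 and 8, where 40.6% and 41.3% of all genes changed. Top2a fell by 1.33 (adjusted p = 0.0331) and 1.51 (adjusted p = 0.0170), while Mki67 did not pass (-1.46 with adjusted p = 0.234 and -1.80 with adjusted p = 0.141). The block put Mki67 past the threshold in each setting (adjusted p = 0.0419 and 0.0177).

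Angiotensin II, a peptide that contracts vessels, was set against no treatment in control cells and in long knockdown, and the difference between those effects was tested as an interaction. No member and no gene passed in any of the 3 comparisons (0% of 15103 genes), by edgeR. At an unadjusted p under 0.05 there were 156, 174 and 166 genes and 0 members, and DESeq2 called 1, 0 and 2 genes, none a member. Acta2 had 195, 198, 219 and 227 CPM in controls under angiotensin II, beside 194 to 223 CPM untreated, and its log2 change was -0.01 (SE 0.14). Among the members with over 100 counts per library, the fold changes in control cells were -0.03 to 0.10 on the log2 scale with SE of 0.07 to 0.35. Tagln had -0.60 (SE 0.48) in controls and 0.55 (SE 0.45) in long knockdown. A p that misses the threshold does not show equal levels.

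In run 2 the libraries labelled total knockdown were compared with the control GapmeR. Myh11 rose, from 20 and 22 counts (0.891 and 1.09 CPM) to 86 and 149 counts (4.31 and 6.67 CPM). The pooled ratio was 5.65 (exact 95% interval 4.06 to 8.05, counting error only), and the log2 change was 2.47 (SE 0.43, adjusted p = 0.0239). It was 1 of 8 tested members to pass, where 2.07% of all 15350 genes tested changed and 1.5% rose. That call rested on few libraries, with adjusted p = 0.206 without control P17, 0.189 without control P18 and 0.264 without knockdown P18. The other 7 members lay between -0.25 (Tpm2) and 0.43 (Myl9) on the log2 scale. Acta2 had 111 and 118 CPM in controls and 107 and 111 CPM in the labelled knockdown, and Cald1 had 508 and 488 against 491 and 533 CPM.

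CASC15 counts were not lower in those 2 libraries, so no direction for CASC15 loss is drawn from them. Cd68, a macrophage gene, lay at 15.8 ± 0.181 CPM there and at 0.430 ± 0.230 CPM in the controls (SD, n = 2), and is named after its values were seen. The macrophage and leukocyte list summed to 27.3 to 31.8 CPM against 8.59 to 10.2 CPM, with C1qa, C1qb and Tyrobp at 0. Of its 3 tested genes 2 rose, where 2.07% of all genes changed. The pericyte list summed to 276 to 369 against 192 to 224 CPM (2 of 3 tested genes rose with the block and none without it). The proliferation sum was 83.1 and 150 against 30.8 and 49.0 CPM. All 8 of its genes rose with the block, where 14.4% of all genes changed, and none without it. The endothelial list was higher, at 7.12 to 11.7 against 3.34 to 4.74 CPM (2 of 3 tested genes rose with the block and none without it). The fibroblast list was lower, at 830 to 869 against 1014 to 1097 CPM (3 of 7 tested genes fell with the block and none without it). The part of these differences in the Myh11 result was not tested. Of 28 tested genes of the wider apparatus, Vcl, which encodes the adhesion protein vinculin, fell by 1.77 (SE 0.27, adjusted p = 0.0148) and none rose. With the batch as a block 3 rose and 3 fell, where 14.4% of all genes changed.

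The last CASC15 comparison set overexpression against control plasmid. Myl9 fell, from 5.45, 6.66 and 4.71 CPM in batches P17 to P19 to 1.95, 2.15 and 2.7 CPM. The groups did not overlap. The log2 change was -1.30 (SE 0.22, adjusted p = 0.0193), and the log2 ratios within batches were -1.44, -1.58 and -0.78, again smallest in P19. This was 1 of 8 tested members, where 1.65% of genes changed and 0.554% fell. The call was lost without control P17 (adjusted p = 0.0656) or P18 (0.0836), without overexpression P17 (0.0772) or P18 (0.0977), and with only these 2 groups in the fit (0.114). With the batch as a block the adjusted p was 0.00127, and Cald1 passed as well (log2 change -0.30, adjusted p = 0.0199), which made 2 members where 17.7% of genes changed.

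Myh11 and Tagln were lower with overexpression in each batch without passing. Myh11 had 17, 9 and 6 counts with control plasmid and 5, 3 and 4 with overexpression, with no overlap (log2 change -1.31, SE 0.44, adjusted p = 0.195). Tagln had 59, 57 and 27 counts against 27, 23 and 26, and its CPM did not overlap either (-0.84, SE 0.30, adjusted p = 0.227). Acta2 ranged from 126 to 441 CPM with control plasmid and from 181 to 383 CPM with overexpression, with P19 the highest in both, and its log2 change of 0.06 had an SE of 0.45. Tpm1 shared that batch pattern, at 907 CPM in P19 against 498 and 514 CPM with control plasmid, and at 829 CPM against 465 and 475 CPM with overexpression. The proliferation sum was also highest in P19, at 360 against 62.9 and 79.6 CPM with control plasmid and at 528 against 123 and 178 CPM with overexpression. All 8 proliferation genes rose with overexpression under the block, where 17.7% of all genes changed, and none without it, where 1.65% changed. The macrophage and leukocyte list summed to 18 to 22.0 CPM with overexpression and 11.4 to 11.7 CPM with control plasmid, and 1 of its 3 tested genes rose (2 with the block). The part of these differences in the members' values, the fall of Myl9 among them, was not tested.

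Of the wider apparatus Zyx, which encodes the adhesion protein zyxin, fell with overexpression by 0.79 (SE 0.13, adjusted p = 0.0160), alone among 28 tested genes, where 1.65% of all genes changed. The 10 serum response factor genes had no call. Calls over all genes went from 253 to 2721 (17.7%) with the batch as a block, and there 7 of the 28 fell, and 1 of the 10 rose and 4 fell. Control plasmid against control GapmeR, controls of the same run, gave no call among the 8 members, where 1.18% of genes changed (1.15% rose and 0.0261% fell). The block gave none either, where 2.99% changed. The top member difference was that of Acta2, 1.09 (SE 0.52, adjusted p = 0.569), and without P19 it was 0.34. At an unadjusted p under 0.05 there were 1444 genes and 0 members.

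Myl9 fell in 3 comparisons, both long knockdown settings and overexpression of total CASC15, and Cald1 in 2, which the block made 3 and 4. Long knockdown and overexpression were measured in different runs against different controls. Its level also differed between runs, at 7.13 and 7.80 CPM in the run 2 antisense controls against 9.28 to 20.9 CPM in the untreated controls of run 3, a difference that cannot be told apart from the run. Genes with the pattern most like the members were those whose log2 CPM had the highest Pearson r with the mean log2 CPM of the 8 tested members over the 20 libraries of run 3, among 10173 genes. They were Gramd1b (r = 0.76), Rpl38 (0.73), Dctn1 (0.72), H1f0 (0.72) and Vasn (0.72). Over the 10 libraries of run 2 the same genes had r of 0.16, -0.42, 0.58, 0.23 and -0.66. The libraries share batches and depth, and r is given as a description. The mean itself ranged from 4.63 to 5.12 on the log2 scale, and controls under angiotensin II alone spanned 4.67 to 5.11. It weights the 8 members alike, so Tagln and Myh11, which rest on few counts, enter it as much as the others.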

How the data were processed

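RNA-seq of 30 libraries was deposited as 1 table of RSEM expected counts per Ensembl gene, with paired reads of 75 bp per the labels' protocols. The submitters' processing notes name STAR 2.7.11b, RSEM 1.3.1 and the builds GRCm39 and mm10 with no roles. The deposited expected counts were rounded here, and symbols came from GENCODE (51486 of 78334 identifiers, 98.7% of counts). Each run was fitted alone with edgeR 4.0.16 in R 4.3.3: filterByExpr (minimum count 10, total 15), TMM scaling, robust quasi-likelihood fit with 1 coefficient per group, and Benjamini-Hochberg adjustment over all genes tested. CPM use TMM-scaled library sizes of tested genes, and 3 counts are the floor. Total counts limit precision, and intervals cover counting error only.

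The genes, the lists and the tests were chosen with earlier results of these data known. Named were all members, list genes fixed by name, list genes called in 2 or more comparisons and changed at least 2-fold (1 on the log2 scale), and the 5 genes most correlated with the members' mean (mean CPM at least 5). A list gene that this rule names is not reported here. Vcl, Zyx and Cd68 were named after their values were seen. The labels give same-numbered libraries 1 batch. Deviations from group means of same-numbered libraries had a mean correlation of 0.230 (0.00503 to 0.669, 13 pairs) in run 2, against -0.121 for other pairs, and of 0.197 (0.00908 to 0.644, 40 pairs) in run 3, against -0.0606. Alternatives were DESeq2 1.42.0, other filters, the batch as a block, only the groups compared, and leaving out libraries. GENCODE M21 exons were used for transcript lengths and for overlap with the RefSeq windows. Proteins were not used here.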

Additional observations from a re-analysis of the deposited data

Results flagged for a closer look

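Groups of 4 libraries were searched for a library far from the other 3, relative to the group's range, in 40 pairs of a member and a group of run 3. Chance flags about 1 in 20 groups, and 4 pairs had such a library. Tagln, the actin-binding transgelin, was 0.790 CPM in batch P18 under PDGF-BB, where the other libraries had 0.411 to 0.458 CPM. Tpm1, a tropomyosin, was 868 CPM in batch P19 under PDGF-BB, against 662 to 666 CPM in the others. Myh11, the myosin heavy chain, was 0.392 CPM (8 counts) in batch P17 of controls under angiotensin II, against 0.0617 to 0.117 CPM. The last pair carries no information on spread: under PDGF-BB, Myh11 was 0.0527 CPM (1 count) in batch P18 and 0 in the other libraries, and 1 count among zeros meets the criterion whatever its size.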

How the results depend on the processing

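Over 72 results for single members and 1055 alternatives, 1014 stayed on their side of the threshold (94 of them with a change of sign where neither value passed), 33 lost a call, 8 gained one and 0 reversed. Leaving out batch P19 was chosen after seeing the data. Where leaving out a library left 1 in an arm (the antisense groups of run 2), that library was assumed to vary like the other groups. The count of members called in the labelled total knockdown (1) was 0 to 1 without single libraries. With overexpression (1) it was 0 to 1 without single libraries, 2 with the replicate block and 0 with only the groups compared. Control plasmid against antisense (0) gave 1 without a filter, Acta2. Long knockdown gave 4 to 5 members untreated (5) and 2 to 7 under angiotensin II (6) without single libraries, and 3 in the latter without a filter. With median transcript lengths 6 of 10 members kept their rank per length.

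Counts over all genes moved more. The labelled total knockdown (317) gave 666 with DESeq2, 1325 without a filter, 190 when genes under a mean of 1 CPM were dropped, 2209 with the replicate block, 1079 with only the groups compared, 1041 without batch P19 and 4 to 188 without single libraries. Overexpression (253) gave 732, 1363 without a filter, 2721 with the block, 66 with only the groups compared, 844 without P19 and 86 to 867. Control plasmid against antisense (181) gave 344, 1106 without a filter, 459 with the block, 101 with only the groups compared and 67 to 277. Long knockdown gave 6126 with the block and 6062 without P19 in untreated cells (3783; 2889 to 4882 without single libraries), and 6238 with the block under angiotensin II (4033; 3042 to 4880). Angiotensin II in controls (0) gave 1 with DESeq2 and 1 with only the groups compared, and the interaction (0) gave 2 and 1. PDGF-BB (6586) gave 5601 to 6624 without single libraries. The cause of these shifts was not tested. The pairing by batch changed the calls of Cald1 with overexpression and in untreated long knockdown and of Tagln in long knockdown under angiotensin II, and no other member's call. Actg2 and Cnn1 were too low to measure, and Myh11 and Tagln rest on few counts.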
